A study of Mus musculus with 32 samples.

Results

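The guanylate-binding proteins (GBPs) are a family of large GTPases, and the 10 mouse genes named Gbp2 to Gbp11 were followed through the ribosome footprints of neural stem cells (NSCs) exposed to IFN-β. Members were named by gene symbol, with earlier results of these data known. Each symbol was matched to its Ensembl identifier in GENCODE M21 on GRCm38 (mm10). Of the 10 members, 7 have an entry among the 23035 genes of the footprint tables and among the 39017 genes of the total RNA tables. Gbp5 (ENSMUSG00000105504), Gbp6 (ENSMUSG00000104713) and Gbp10 (ENSMUSG00000105096) have identifiers above the highest one in these tables, ENSMUSG00000099294 for footprints and ENSMUSG00000099334 for total RNA, and were not analysed here.

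Ribo-Seq counts the mRNA fragments that ribosomes protect from RNase (footprints), beside the total RNA of the same lysates. NSCs came from the ventricular-subventricular zone (vSVZ) of C57BL/6 mice aged 8 to 12 weeks, were grown ex vivo, and received vehicle or IFN-β for 2 h or for 14 h. Every culture, vehicle included, was also given cycloheximide shortly before lysis, a translation inhibitor that holds ribosomes on the mRNA. Each of the 4 groups held 4 cultures, with the numbers 2, 3, 5 and 6 (2 h) or 1 to 4 (14 h), and with 1 footprint library and 1 total RNA library made from each culture. The labels name the replicates by number only, and the study's text calls them biological replicates. The cells were studied outside the niche, and whether the cultures held other cell types was not tested beyond the markers below. A change in a bulk library cannot be told apart from a change in the share of responding cells.

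GBPs bind GTP through a P-loop in an amino-terminal globular domain, assemble into higher-order coats, and are known for attacking the membranes around intracellular bacteria and parasites. Some members end in a CaaX box, a short motif whose cysteine receives a lipid that anchors the protein to membranes. Their genes are among the classical interferon-stimulated genes: type-I interferon acts mainly at promoter sites called ISRE, and type-II interferon at sites called GAS. In neural tissue GBPs are known mostly from the response to infection.

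The mouse genes lie in 2 clusters. On the plus strand of chromosome 3, in GRCm38, follow Gbp5 (142493978 to 142522344), Gbp7 (142530342 to 142550149), Gbp3 (142560026 to 142573209), Gbp2b (142594847 to 142619179) and Gbp2 (142620602 to 142638008). On the minus strand of chromosome 5 lie Gbp8 (105014150 to 105139540), Gbp9 (105077630 to 105139539), Gbp4 (105115767 to 105139586), Gbp10 (105215699 to 105239533), Gbp6 (105270702 to 105293698) and Gbp11 (105323042 to 105346472), which GENCODE classes as a polymorphic pseudogene. Gbp2b is a family gene that is no member by name. Gm43302 (105214907 to 105293695) is a gene model on chromosome 5 that was added after its values were seen: of its 1833 coding bases 1650 are also coding in Gbp6 and 183 in Gbp10.

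How alike the members are bears on every count below. The bases that encode the P-loop, read from the GRCm38 genome at the RefSeq coding sequence, are printed for the members with a RefSeq protein. Capitals mark bases that differ from Gbp2.
Gbp2: ggcctctaccgcacaggcaaatcc
Gbp3: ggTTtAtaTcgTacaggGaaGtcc
Gbp7: ggActAtaccgTacGggAaaatcc
Gbp5: ggTctTtaTcgcacaggcaaatcc
Gbp4: ggATGGtCccATacaggGaaGtcc
Gbp8: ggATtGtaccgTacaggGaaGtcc
Gbp9: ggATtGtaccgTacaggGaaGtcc
Gbp6: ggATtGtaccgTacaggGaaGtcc
Gbp10: ggATGGtCccgTacTggGaaGtcc
These 24 bases lie in 1 exon in each gene, at chr3:142623826-142623849 in Gbp2, chr3:142561878-142561901 in Gbp3, chr3:142534655-142534678 in Gbp7, chr5:105136872-105136895 in Gbp4, chr5:105050898-105050921 in Gbp8 and chr5:105105698-105105721 in Gbp9. Gbp6, Gbp8 and Gbp9 are identical over them, 6 bases away from Gbp2, and Gbp4 differs from Gbp2 at 9.

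A footprint is about as long as such a stretch. The share of 30-base windows of each CDS that recur anywhere in another gene's transcripts, coding or not, was therefore measured. It was 7.42% for Gbp2, 10.5% for Gbp3 and 11.2% for Gbp7 on chromosome 3. On chromosome 5 it was 42.6% for Gbp4, 47.1% for Gbp8, 40.3% for Gbp9 and 43.3% for Gbp11, and it reached 81.9% for Gbp10, 97.1% for Gbp6 and 100% for Gm43302. Counts of the chromosome 5 genes are therefore uncertain among themselves, since reads of 1 gene can be given to another, and the values of these rows were also computed with Gbp4, Gbp8, Gbp9 and Gm43302 summed. Proteins of RefSeq ranged from 525 residues (Gbp8) to 644 (Gbp4). Of these proteins Gbp2, Gbp5 and Gbp2b carry the CaaX cysteine, and Gbp3, Gbp4 and Gbp6 to Gbp10 do not. Gbp2 was 52.5% identical to Gbp7 and 53% to Gbp3, while Gbp3 and Gbp7 were 73.1% identical and Gbp4 and Gbp8 83.7%.

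The promoters of Gbp2, Gbp3, Gbp5 and Gbp7, and of Gbp2b, were read from RefSeq on GRCm38.p6, as windows from 250 bases before to 50 after the gene start. The core of an ISRE, written as GAAA, any 2 bases and GAAA again, was searched on both strands. It was found in 1 window of each of these genes, and the second of 2 windows given for Gbp3 held 0 matches. It occurs in 3.44% of the 32851 promoters of the same length. The matches are shown because Gbp2, Gbp3, Gbp7 and Gbp2b are all called higher with IFN-β below, though they differ in their course over time, and Gbp5 was not analysed. Matched letters are in capitals, on the plus strand, each lying on the strand opposite to the gene.
Gbp2, chr3:142620594-142620623: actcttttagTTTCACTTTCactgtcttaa
Gbp3, chr3:142559989-142560018: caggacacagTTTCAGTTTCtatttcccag
Gbp7, chr3:142530273-142530302: gtgtgtgcagTTTCAGTTTCagttctccat
Gbp5, chr3:142496759-142496788: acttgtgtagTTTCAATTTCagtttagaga
Gbp2b, chr3:142594700-142594729: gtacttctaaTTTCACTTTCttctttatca
Gbp3 held a second match that overlaps the one shown. The letters TTCNNNGAA, the pattern of a GAS, were found in Gbp5 and Gbp7 and in 8.3% of all promoters. A match is a run of letters and not a measured binding site.

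The footprint libraries held 2956297 to 10505108 counts and the total RNA libraries 1370008 to 7877753, with the smallest total RNA libraries at 14 h. TMM scaling factors lay between 0.98 and 1.02 for footprints. In total RNA, vehicle replicate 5 at 2 h had a factor of 0.41 and vehicle replicate 3 at 14 h one of 0.49, against 1.02 to 1.30 for the other 14 libraries, and the results in total RNA and TE are also given without them. All 8 NSC markers were detected in every group, and their summed footprints lay between 10533 and 17976 CPM in every library. Gfap was near the floor at 14 h and not tested, with 1 to 3 footprints per vehicle and 6 to 9 per IFN-β library. At 2 h it varied widely, with 5 to 816 and 347 to 2297. At 2 h 0 of 8 were called, and at 14 h 3 of 7 tested were called lower with IFN-β, with log2 fold changes of -0.36 (Slc1a3), -0.40 (Fabp7) and -1.13 (Prom1). Of 9 microglial markers Aif1, Cx3cr1, Trem2 and C1qa were at 0 in all footprint libraries, and the list summed at 2 h to 11.9 to 34.6 CPM (vehicle) and 15.7 to 38.5 CPM (IFN-β). At 14 h its sums were 36.9 to 41.6 and 40.2 to 45.4 CPM, with P2ry12 called higher (1.62) and Itgam called lower (-0.75). The 5 endothelial markers summed to 10.1 to 40.5 CPM over all libraries. The sum of the 3 neuroblast markers was higher with IFN-β at 2 h, at 354 to 481 CPM against 195 to 249, and lower at 14 h, at 174 to 199 against 220 to 243. Of the 3, Sox11 was the one called at 2 h (1.00), and at 14 h Sox11 was called lower (-0.45) and Tubb3 higher (0.23). The sum of the 4 oligodendrocyte markers was higher with IFN-β at 14 h, at 218 to 294 CPM against 95.6 to 126, with Cnp called (1.20), and overlapped at 2 h. These calls are those of edgeR, defined below, and the part of the markers in the results was not tested.

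Footprints of Gbp2, one of the most studied antimicrobial GBPs, were 54.5-fold higher at 2 h of IFN-β and 241-fold higher at 14 h, by the ratio of mean CPM. The 4 vehicle libraries at 2 h held 237, 280, 231 and 192 Gbp2 footprints in replicates 2, 3, 5 and 6, and the IFN-β libraries 9619, 12038, 11736 and 7824. Scaled to library size this was 30.4 ± 6.31 CPM (SD, n = 4) with vehicle and 1653 ± 569 CPM (SD, n = 4) with IFN-β. The 4 IFN-β libraries all lay above the vehicle libraries. At 14 h replicates 1 to 4 held 19, 43, 42 and 70 footprints with vehicle and 2993, 7489, 8711 and 12538 with IFN-β. The level with IFN-β was then 1179 ± 165 CPM (SD, n = 4), and the vehicle level had dropped to 4.89 ± 1.38 CPM (SD, n = 4). Again the groups did not overlap.

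Gbp3 and Gbp7, both of the chromosome 3 cluster and without a CaaX cysteine, had the highest mean footprint levels of the members in vehicle cultures, per length of CDS. Gbp3 vehicle libraries held 388, 153, 277 and 232 footprints at 2 h and IFN-β libraries 1618, 965, 1363 and 1033. At 14 h they held 150, 342, 244 and 353 with vehicle and 1821, 4411, 4380 and 5920 with IFN-β. The 4 IFN-β libraries at 14 h were close to each other after scaling, at 632 ± 15.5 CPM (SD, n = 4), against 31.2 ± 3.34 (SD, n = 4) with vehicle. Gbp7 counts at 2 h were 429, 285, 369 and 268 with vehicle and 2080, 1613, 1964 and 1363 with IFN-β. They were 165, 339, 249 and 439, and 1059, 2550, 2700 and 3764, at 14 h. Neither gene had overlapping groups at either time.

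The chromosome 5 members started from lower levels. Gbp4 had 35, 24, 23 and 25 footprints with vehicle and 1075, 774, 868 and 694 with IFN-β at 2 h, and 7, 8, 15 and 24 and 521, 1371, 1462 and 1912 at 14 h. Gbp8, the shortest of the proteins, had 13, 15, 15 and 7 with vehicle and 249, 244, 286 and 202 with IFN-β at 2 h, and 5, 3, 4 and 2 and 149, 373, 394 and 600 at 14 h. In both genes each IFN-β library was far above all vehicle libraries of its time, and at 14 h the vehicle side of Gbp8 rested on 14 footprints in all. Gbp8 at both times and Gbp4 at 14 h reached the count filter through the IFN-β libraries, so that their passing it is itself tied to the response. For Gbp9, replicates 2, 3, 5 and 6 at 2 h held 63, 117, 109 and 69 footprints with vehicle and 568, 1053, 1033 and 696 with IFN-β. Gbp9 varied more between cultures at 2 h than the other members: IFN-β libraries ranged from 71.8 to 215 CPM and vehicle libraries from 6.70 to 16.4. Cultures with the same number varied together, and the log2 ratio of IFN-β over vehicle within a number kept to 3.32 to 3.72. At 14 h Gbp9 had 23, 36, 55 and 40 footprints with vehicle and 653, 1533, 1627 and 2255 with IFN-β.

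Gbp11 had 0 footprints in all 16 libraries. A count of 0 allows up to 3 counts, or 0.286 to 1.01 CPM depending on the library, a limit that covers counting error only. In total RNA Gbp11 had single reads in 3 libraries, all with IFN-β.

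**Figure D1:**
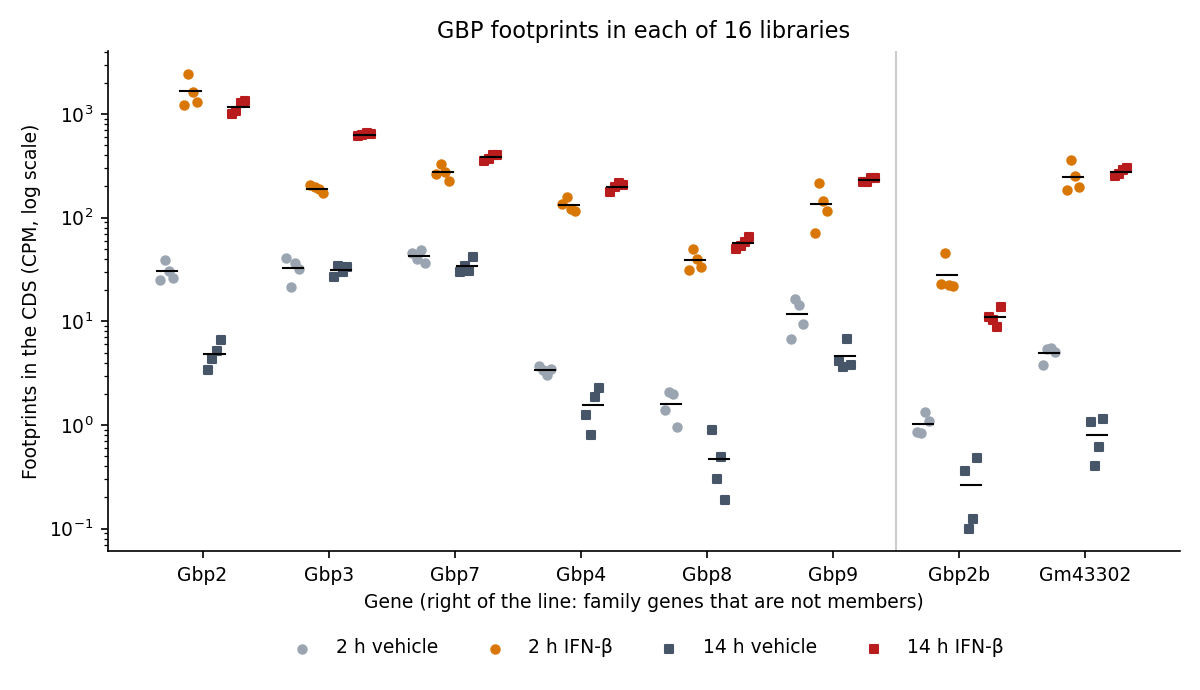
Footprints in the CDS of each gene (CPM, log axis) in the 16 footprint libraries, by time and treatment. Points are libraries and short lines are means of 4 libraries. For all 6 members on the left the IFN-β libraries lie above the vehicle libraries at both times, and the vehicle points of Gbp2 drop between 2 h and 14 h while those of Gbp3 do not.

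Levels of different genes were set side by side per kilobase of CDS. With vehicle at 2 h the order was Gbp7 (22.4 ± 2.83 CPM per kb; SD, n = 4), Gbp3 (17.7 ± 4.58), Gbp2 (17.2 ± 3.57), Gbp9 (6.33 ± 2.39), Gbp4 (1.79 ± 0.147) and Gbp8 (1.02 ± 0.338). The ranges of the first 3 overlapped from one to the next, and all lower steps were clear of each other. With IFN-β at 2 h Gbp2 was first, at 936 ± 322 CPM per kb (SD, n = 4), above Gbp7 (143 ± 22.4), Gbp3 (103 ± 7.63), Gbp9 (73.6 ± 32.4), Gbp4 (70.1 ± 10.1) and Gbp8 (24.6 ± 5.26). Here Gbp2 was clear of Gbp7, Gbp7 of Gbp3 and Gbp4 of Gbp8. Gbp3 and Gbp9, and Gbp9 and Gbp4, overlapped. The first place had thus passed from Gbp7 to Gbp2 with IFN-β.

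At 14 h the vehicle order was Gbp7 (17.8 ± 2.84 CPM per kb; SD, n = 4), Gbp3 (16.8 ± 1.79), Gbp2 (2.77 ± 0.783), Gbp9 (2.47 ± 0.809), Gbp4 (0.818 ± 0.345) and Gbp8 (0.299 ± 0.198). Gbp7 and Gbp3 overlapped there, as did Gbp2 and Gbp9, and each was above the other in 2 of 4 libraries. Gbp4 and Gbp8 overlapped too, with Gbp4 above Gbp8 in 4 of 4 libraries. With IFN-β at 14 h the order was Gbp2 (667 ± 93.5 CPM per kb; SD, n = 4), Gbp3 (340 ± 8.32), Gbp7 (199 ± 12.7), Gbp9 (124 ± 6.89), Gbp4 (105 ± 9.31) and Gbp8 (35.9 ± 3.97). No neighbours in that order overlapped.

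The family's footprints therefore changed in make-up as well as in amount. The 6 detected members summed at 2 h to 123 ± 10.8 CPM (SD, n = 4) in vehicle cultures and 2425 ± 693 CPM (SD, n = 4) under IFN-β. At 14 h the sums were 76.7 ± 9.01 CPM (SD, n = 4) for vehicle and 2678 ± 236 CPM (SD, n = 4) for IFN-β. Per length, Gbp2 took 25.9% of the members' level with vehicle at 2 h and 69.3% with IFN-β. At 14 h it took 6.77% and 45.4%. The share of Gbp3 with IFN-β was 7.61% at 2 h and 23.1% at 14 h. In single libraries the Gbp2 share with IFN-β was 64.6% to 73.2% at 2 h and 42.9% to 47.8% at 14 h, ranges that did not overlap.

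**Figure D2:**
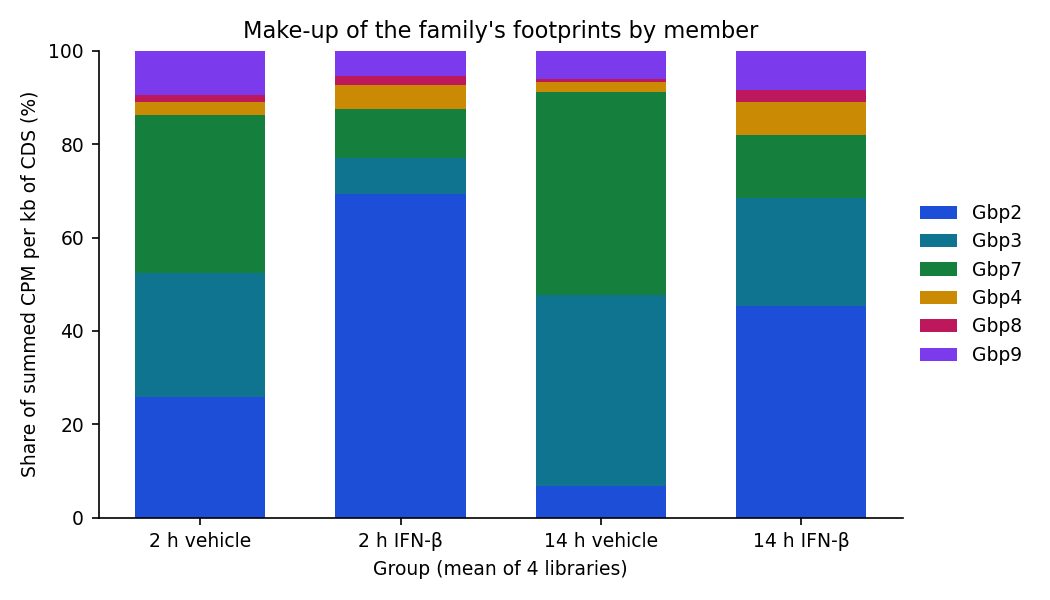
Share of each member (percent) in the summed footprint level of the 6 detected members, in CPM per kb of CDS, from group means of 4 libraries. Gbp7 and Gbp3 hold the largest shares with vehicle, Gbp2 holds 69.3% with IFN-β at 2 h, and Gbp3 holds 23.1% with IFN-β at 14 h.

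The response of each member was tested with edgeR's quasi-likelihood test over all genes, two-sided, with Benjamini-Hochberg adjustment. The threshold for a call was an adjusted p of 0.05, and a log2 fold change is that of IFN-β relative to the vehicle cultures of its own time. At 2 h all 6 tested members were called higher, and 5.25% of the 12104 genes tested were called higher. Their log2 fold changes ran from 2.54 (Gbp3) to 5.77 (Gbp2), with a median of 4.06 against -0.02 over all genes tested. At 14 h all 6 were again called higher, where 26.2% of 12113 genes were. The log2 fold changes then ran from 3.47 (Gbp7) to 7.86 (Gbp2), with a median of 6.31 against 0.00. The calls on members are counts over genes that share sequence and regulation, not independent observations.

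The Gbp2 log2 fold change was 5.77 (standard error 0.29, edgeR adjusted p = 2.72e-06) at 2 h and 7.86 (standard error 0.16, adjusted p = 2.01e-13) at 14 h. For Gbp4 the values were 5.28 (standard error 0.14, adjusted p = 1.29e-07) and 6.96 (standard error 0.15, adjusted p = 4.49e-13). Gbp8 followed with 4.58 (standard error 0.25, adjusted p = 3.91e-06) and 7.06 (standard error 0.20, adjusted p = 6.92e-12), and Gbp9 with 3.55 (standard error 0.39, adjusted p = 0.000429) and 5.66 (standard error 0.13, adjusted p = 5.69e-13). Gbp7, with 2.67 (standard error 0.14, adjusted p = 3.56e-06) and 3.47 (standard error 0.10, adjusted p = 5.15e-12), and Gbp3, with 2.54 (standard error 0.18, adjusted p = 2.34e-05) and 4.32 (standard error 0.07, adjusted p = 4.11e-14), had the smallest changes at 2 h. These are the members with the highest mean vehicle levels per length. At 2 h, however, Gbp2 had the largest change at a vehicle level that overlapped that of Gbp3 (17.2 ± 3.57 against 17.7 ± 4.58 CPM per kb; SD, n = 4). The vehicle level is also the denominator of each fold change, so level and change are not independent. With Gbp4, Gbp8, Gbp9 and Gm43302 summed, the log2 fold change of the sum was 4.68 at 2 h and 6.69 at 14 h, both called.

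**Figure D3:**
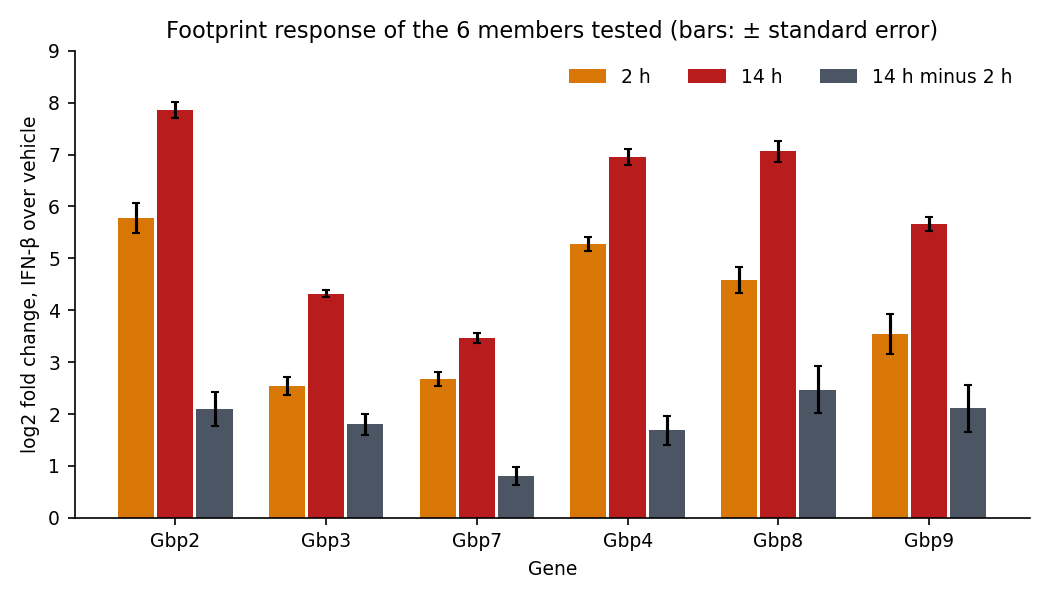
Log2 fold change of footprints, IFN-β over vehicle, for the 6 tested members at 2 h, at 14 h, and the difference between them, with standard errors from the fit over 4 libraries a group. Every bar lies above 0, the 14 h bar is the higher one for each member, and the difference is smallest for Gbp7, at 0.81.

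Whether the response differed between 14 h and 2 h was tested across the 16 footprint libraries, with the interaction term of treatment and time. All 6 members were called, each with the larger response at 14 h, and 15.4% of 12508 genes were called in that direction. The difference on the log2 scale was 2.47 (standard error 0.45, edgeR adjusted p = 0.000647) for Gbp8, 2.11 (standard error 0.45, adjusted p = 0.00232) for Gbp9 and 2.10 (standard error 0.33, adjusted p = 0.000174) for Gbp2. It was 1.80 (standard error 0.20, adjusted p = 5.42e-06) for Gbp3, 1.69 (standard error 0.28, adjusted p = 0.000274) for Gbp4 and 0.81 (standard error 0.17, adjusted p = 0.00244) for Gbp7. The median difference was 1.95, against 0.02 over all genes tested.

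The difference was made up in unlike ways. For Gbp2 the IFN-β level at 14 h relative to 2 h was -0.49 ± 0.20 (standard error) on the log2 scale and the vehicle level -2.59 ± 0.26. The larger Gbp2 response at 14 h thus stood on a lower vehicle level, not on a higher IFN-β level. Gbp3 had the opposite pattern, with 1.73 ± 0.13 on the IFN-β side and -0.07 ± 0.14 on the vehicle side. In Gbp7 the values were 0.48 ± 0.12 and -0.33 ± 0.13. The chromosome 5 members had both components, with 0.58 ± 0.12 and -1.10 ± 0.25 for Gbp4, 0.56 ± 0.16 and -1.91 ± 0.42 for Gbp8, and 0.76 ± 0.26 and -1.35 ± 0.37 for Gbp9. These splits are a description: the libraries of the 2 times are separate tables with differently numbered cultures, and time and experiment cannot be told apart in them.

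**Figure D4:**
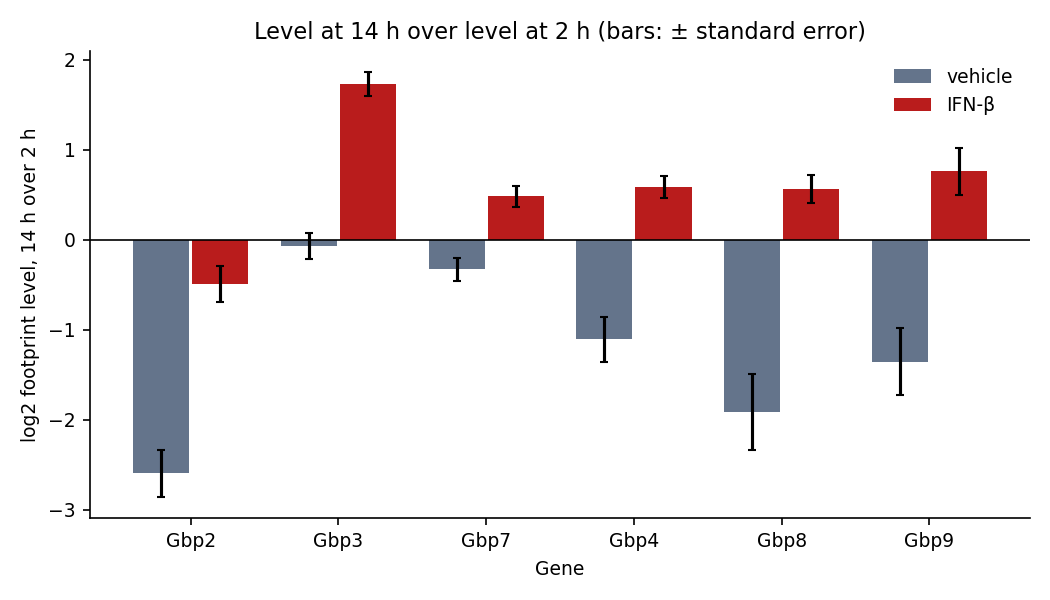
Log2 footprint level at 14 h over that at 2 h for each tested member, separately for vehicle and IFN-β cultures (4 libraries a group and time), with standard errors. Gbp2 falls below 0 on both sides, by 2.59 with vehicle, Gbp3 rises by 1.73 with IFN-β alone, and the chromosome 5 members lie below 0 with vehicle and above 0 with IFN-β.

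Outside the member names, Gbp2b had few footprints: at 2 h each vehicle library held 6 to 10 and each IFN-β library 132 to 225. At 14 h these were 1 to 5 and 33 to 128. Its protein is 76.2% identical to Gbp2. It was called higher at both times (log2 fold change 4.76 and 5.31), having reached the count filter through the IFN-β libraries at both, and its difference between the times was 0.55 (standard error 0.61, edgeR adjusted p = 0.527). Gm43302, whose coding bases are those of Gbp6 and Gbp10, held 36 to 42 footprints in the vehicle and 1203 to 1805 in the IFN-β libraries at 2 h. At 14 h it held 4 to 12 and 752 to 2803. Which of these genes its reads came from was not tested.

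Total RNA, counted over the whole gene body, held few reads for most members. Reads were few for other genes too: of the 8 NSC markers 6 had enough to be tested at 2 h and 5 at 14 h. Sox2 had too few at both times, and Vim at 14 h, though Vim held 16940 to 40804 footprints per vehicle library then. The cause of these low counts was not tested. At 14 h Gbp2 had 2, 0, 0 and 1 reads in the vehicle libraries and 4, 3, 16 and 9 with IFN-β, a ratio of 7.81 with a 95% exact counting interval of 2.44 to 39.8. Gbp8 had 1, 1, 0 and 0 reads with vehicle and 5, 5, 6 and 5 with IFN-β, a ratio of 7.69 (1.88 to 67.6). For Gbp3 the reads were 2, 2, 3 and 1, and 12, 7, 20 and 14. The counting intervals leave out the variation between cultures. Gbp4 and Gbp9 had 0 total RNA reads in all 16 libraries, although their CDS held 3350 to 6068 IFN-β footprints per time. The span of Gbp9 lies wholly (100%) and that of Gbp4 to 99.8% within other genes of the tables on the same strand, against 49.4% for Gbp8 and 0% for Gbp2, Gbp3 and Gbp7. The counting mode, Union, leaves out reads that overlap more than 1 gene. The part of this overlap in the missing reads was not tested.

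At 2 h Gbp2 had 2, 4, 3 and 4 reads with vehicle and 85, 210, 63 and 20 with IFN-β. Of the 3 members with enough reads, 2 were called higher in total RNA, where 0.722% of 11639 genes were. Both, Gbp2 and Gbp3, reached the count filter through the IFN-β libraries. They had 0 and 1 vehicle libraries with 10 or more reads, so their being tested is itself tied to the response. The log2 fold change was 4.57 (standard error 0.62, edgeR adjusted p = 0.00242) for Gbp2 and 2.44 (standard error 0.46, adjusted p = 0.028) for Gbp3. Gbp7 had 74, 70, 59 and 108 reads with vehicle and 176, 231, 141 and 70 with IFN-β, groups that overlapped, with a log2 fold change of 0.77 (adjusted p = 0.486). Without vehicle replicate 5 the Gbp2 call held (adjusted p = 0.0155) and the Gbp3 call was lost (adjusted p = 0.101 in edgeR). The Gbp3 call was lost as well without any single IFN-β library and without vehicle replicate 2 or 3, and with the replicate number as a block (adjusted p = 0.12). Gbp2 fell below the count filter without any single IFN-β library.

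At 14 h Gbp7 alone had enough total RNA reads, 29, 13, 6 and 23 with vehicle and 53, 36, 64 and 29 with IFN-β. Its log2 fold change was 0.91 (standard error 0.26, edgeR adjusted p = 0.0511, unadjusted 0.00323). The other members were not tested there, and Gbp7 was not called, where 3.47% of 7520 genes were called higher. DESeq2 and limma-voom did not call it (adjusted p = 0.0757 and 0.071). It was called with the replicate number as a block in edgeR (adjusted p = 0.0499), and without vehicle replicate 3 the adjusted p was 0.0872.

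**Figure D5:**
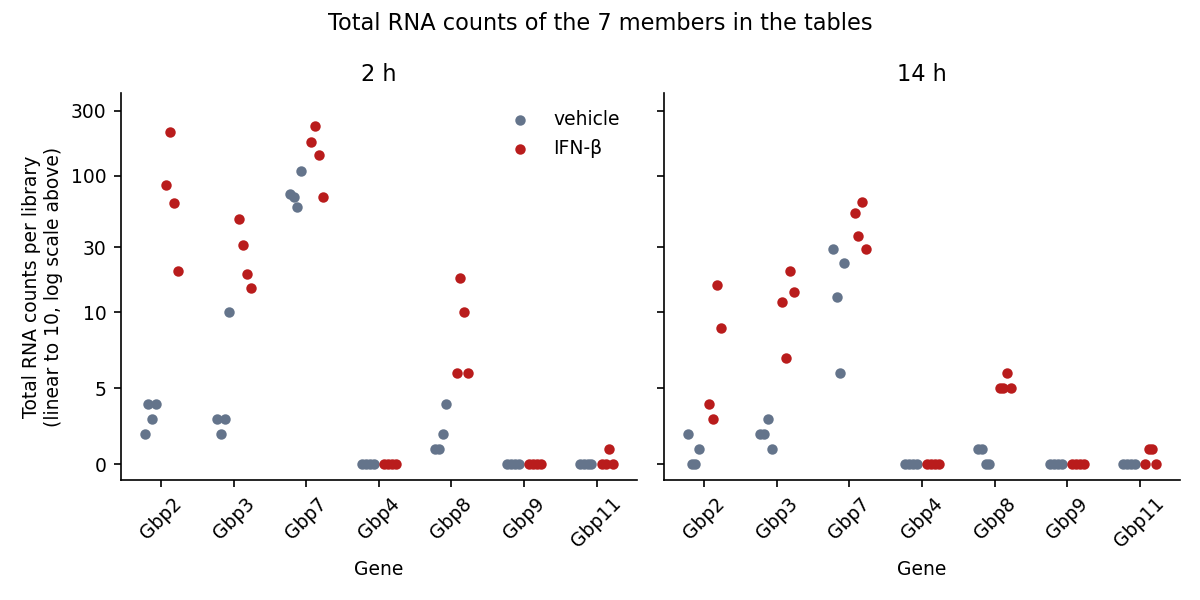
Total RNA counts per library (linear up to 10, log scale above) for the 7 members in the tables, at 2 h and 14 h, with vehicle and IFN-β. Gbp7 has the most reads, Gbp4 and Gbp9 are at 0 in all libraries, and the vehicle libraries of Gbp2 and Gbp8 hold 0 to 4 reads.

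Translation efficiency (TE) was taken as the interaction of the kind of library and the treatment, called at an adjusted p under 0.1. It has a value for Gbp2, Gbp3, Gbp7 and Gbp8 only, since Gbp4 and Gbp9 had no total RNA reads. At 2 h 1 of the 4 was called higher, where 0.581% of 14115 genes were. This was Gbp7, with 1.95 (standard error 0.32, edgeR adjusted p = 0.00273). Scaling by library totals alone ended that call, with 1.58 and an adjusted p of 0.403. The other TE changes at 2 h were 2.49 for Gbp8 (adjusted p = 0.24), 1.21 for Gbp2 (adjusted p = 0.895) and 0.14 for Gbp3 (adjusted p = 1), the last with a sign that turned under 3 alternatives.

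At 14 h all 4 were called, where 4.49% of 13447 genes were called higher, and their calls rested on few reads. Gbp8 reached the count filter through the IFN-β libraries, as it did at 2 h, so its being tested is itself tied to the response. At 14 h 0 of its vehicle footprint libraries and 0 of its total RNA libraries held 10 or more counts. Gbp7 had a TE change of 2.53 (standard error 0.28, edgeR adjusted p = 1.17e-06), and its call held without each library in turn. The changes of Gbp2, at 4.92 (standard error 1.45, adjusted p = 0.043), and Gbp8, at 4.12 (standard error 1.43, adjusted p = 0.09998), rested on 3 and 2 vehicle reads in total RNA. The adjusted p of Gbp2 was 0.42 without vehicle replicate 1 and 0.116 without vehicle replicate 4. Gbp8 was lost without vehicle replicate 1, 2 or 3, with the block, with library totals alone and with no filter on low counts. Gbp3 had 2.05 (standard error 0.65, adjusted p = 0.0661) and its call ended when IFN-β replicate 1 or 2, or vehicle replicate 1, 2 or 3, was left out. Leaving out vehicle replicate 3 gave 1.48 (adjusted p = 0.344 in edgeR).

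The genes that carry the interferon signal to GBP promoters were followed as a list of 10, from receptor chains and kinases to transcription factors. In the footprints at 2 h 7 of 10 tested rose and 0 fell, against 5.25% and 2.01% of all genes. Of those that rose, Irf8 reached the count filter through the IFN-β libraries, so its being tested is itself tied to the response. At 14 h 8 of 9 rose and 0 fell, against 26.2% and 26.3% of all genes. Stat2 changed by 4.03 at 2 h and 4.63 at 14 h on the log2 scale, and Irf9 by 4.49 and 5.75. Both responded more at 14 h. Over the list, though, the difference between the times was called larger at 14 h for 4 of 10 genes, where 15.4% of 12508 genes were. It was called smaller for 4, namely Jak1 (-0.55), Irf1 (-0.81), Irf2 (-0.72) and Irf8 (-2.41). Over all genes 3867 differences were called in either direction. Median log2 fold changes were 1.94 over the 10 genes tested at 2 h and 0.81 over 9 at 14 h, where Irf8 was below the count filter. The list was written with results of these data known.

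Of the 6 genes for enzymes that attach and process the CaaX lipid, 0 were called at 2 h. At 14 h 2 were called lower, a share near the 26.3% of all genes: Fntb, the beta subunit of farnesyltransferase (fell by 0.45), and Zmpste24, a protease that trims CaaX proteins (fell by 0.26). Genes of ATG8 conjugation, which is known to help GBPs and related GTPases find their target membranes, had 0 of 11 calls at 2 h. At 14 h 3 of 11 rose, which is about the 26.2% of all genes, namely Gabarapl1 (0.65), Gabarap (0.26) and Atg12 (0.24). With the replicate number as a block 1 CaaX gene was called lower at 2 h and 1 ATG8 gene higher, when 13.4% of all genes were called lower and 15.9% higher. At 14 h the block gave 2 CaaX genes lower, and 3 ATG8 genes higher and 1 lower, against 31.8% of all genes higher and 31% lower.

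Inflammasome genes, which act downstream of membranes opened by GBPs, were at low levels. At 2 h 3 of 9 were tested and 1 rose (2 with the block), when 5.25% of all genes did (15.9% with the block). The 1 was Casp4 (mouse caspase-11), with 0 to 3 footprints in the vehicle and 18 to 41 in the IFN-β libraries. At 14 h 5 of 9 were tested and called higher, when 26.2% of all genes were. Of these, Casp1, Casp4 and Gsdmd reached the count filter through the IFN-β libraries, as Casp4 did at 2 h. The other two, Casp8 and Il18, changed by 1.02 and 1.51. Casp4 had 0 footprints in the vehicle libraries and 10 to 25 with IFN-β, which is at least 30.2-fold higher if the vehicle group as a whole is set to 3 counts. Casp1 changed by 3.91 on the log2 scale (5 to 18 and 42 to 193 footprints), and Gsdmd, the pore former, by 5.38 (1 footprint in each vehicle and 11 to 59 in the IFN-β libraries).

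Immunity-related GTPases (IRGs), smaller GTPases that work at the same pathogen vacuoles, were called higher, 7 of 7 at 2 h and 7 of 7 at 14 h, when 5.25% and 26.2% of all genes were. Of these genes 3 at 2 h and 6 at 14 h reached the count filter through the IFN-β libraries. Their median log2 fold change was 6.86 at 2 h and 10.49 at 14 h. Irgm1 changed by 5.58 and 5.76, Irgm2 by 6.19 and 9.09, and Iigp1 by 7.16 and 11.93, with 0 to 3 footprints of Iigp1 per vehicle library at 14 h. As in Gbp2, vehicle footprints of Irgm2 were fewer at 14 h (1 to 6 per library) than at 2 h (24 to 35). Of 12 other GTPases of the dynamin superfamily, to which GBPs belong, 2 rose at 2 h, Mx1 and Mx2, which reached the count filter through the IFN-β libraries at both times. At 14 h 5 rose and 2 fell, against 26.2% and 26.3% of all genes. Mx2 changed by 8.16 at 14 h. Mx1 had 0 vehicle footprints there and between 126 and 466 under IFN-β, at least 576-fold higher by the same rule, and Dnm2, a dynamin of endocytosis, changed by 0.36.

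The 5 genes outside the family whose footprint profile over the 16 libraries was most like the median profile of the 6 members were Ifit3 (Pearson r = 0.996), Ifit3b (0.995), Usp18 (0.993), Iigp1 (0.991) and Rtp4 (0.990). The comparison covered 10308 genes averaging 50 counts or more, and the libraries share depth, time and treatment. Ifit3 had 37 to 47 footprints per vehicle library at 2 h and 1 to 3 at 14 h, against 2989 to 5271 and 4023 to 15024 with IFN-β. Of the members, Gbp2, Gbp4, Gbp8 and Gbp9 shared this drop of the vehicle level between the times by over 1 on the log2 scale, and Gbp3 and Gbp7 did not.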

How the data were processed

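Per the labels and the study's methods, the authors trimmed reads with Trim Galore 0.4.4, mapped them with Bowtie 0.12.7 to the mm10 (GRCm38) transcriptome, dropped duplicate reads and used SummarizeOverlaps in its Union mode, which leaves out reads overlapping more than 1 gene, for the counts of each gene. The deposited values are raw counts: footprints in the CDS, total RNA in the gene body. Bowtie ran at its standard settings. The strand setting of the counting is not given in the sources used here. All 32 libraries were grouped by their labels, and no column was of an unknown sample.

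A gene entered a comparison when 4 or more of its libraries held 10 or more counts, and was tested in R 4.3.3 with edgeR 4.0.16 (TMM, quasi-likelihood test, Benjamini-Hochberg adjustment over all genes tested), called at 0.05, or 0.1 for TE, where TMM ran within each kind of library. CPM are counts relative to the TMM-scaled library size, over 16 libraries for footprints and per table for total RNA. Alternatives were DESeq2 1.42.0, limma 3.58.1 (voom), library totals, other filters, a replicate block, leaving out each library, and summed chromosome 5 genes, the last chosen after seeing the data. Simulated counts with 200 changed genes were tested first: 99.5% were recovered in footprints at 2 h and at 14 h. In total RNA 94% and 98% were recovered, and in TE 72.5% and 57.5%. Of the calls in these comparisons, 4.33% to 9.94% fell on unchanged genes. The changed genes were drawn above a floor of mean counts, and the raised ones had median log2 fold changes of 1.90 to 2.05. The shares recovered therefore do not describe members with few total RNA reads. Same-numbered footprint cultures deviated together, with correlations of 0.46 to 0.86 at 2 h and 0.24 to 0.49 at 14 h, so the numbers pair them. Total RNA came from the same cultures, but its correlations ran from -0.66 to 0.54. For footprints and total RNA the main tests left the pairing by number out, and the replicate block took it in. In TE the main test took the footprint and total RNA library of a culture as separate, and the block joined them. P-values of the main tests measure the spread between libraries taken as unpaired.

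The members and gene lists were chosen with earlier results of these data known. Named genes were all members, Gbp2b, up to 3 genes per list with the smallest adjusted p in footprints at 14 h, and the 5 genes most alike in profile (log2 CPM with a pseudocount of 0.5). Of the genes this rule names, 1 is not reported here. Gm43302 and the markers with a value were added after their values were seen. Intervals and limits from counts cover counting error only.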

Additional observations from a re-analysis of the deposited data

Results flagged for a closer look

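The footprint response to IFN-β differed between 14 h and 2 h for each of the 6 tested members, by the interaction of time and treatment in edgeR. The log2 differences were 2.10 for Gbp2, 1.80 for Gbp3, 1.69 for Gbp4, 0.81 for Gbp7, 2.47 for Gbp8 and 2.11 for Gbp9, all larger at 14 h. In 1 of 24 footprint groups a library stood apart from the other 3: Gbp9 with vehicle at 14 h, where replicate 3 had 6.81 CPM against 3.59 to 4.13, a gap of 0.834 of the range of the group. About 1 in 20 groups are marked this way by chance. Without that library the Gbp9 response at 14 h was still called.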

How the results depend on the processing

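The footprint calls of the tested members held under every alternative tried at 2 h, at 14 h and for the difference. With the chromosome 5 genes summed, 4 of 4 were called in each. Without any single IFN-β library at 14 h Gbp8 fell below the filter, so 5 members were tested. The members called numbered 6 at 2 h, 5 to 6 at 14 h and 6 for the difference without single libraries. With the replicate number as a block 6 footprint calls remained in each comparison, while the genes called overall at 2 h rose from 878 to 3538. Members called in total RNA at 2 h, 2 in the main setting, were 0 with limma-voom, 0 with a mean of at least 50 counts, 1 with the replicate block and 0 to 2 without single libraries. In total RNA at 14 h 0 of 1 tested were called, 3 without a filter on low counts, 1 with the block and 0 without single libraries. For TE at 2 h the 1 call became 0 with library totals alone, 2 with DESeq2, 2 with limma-voom, and stayed 1 with the block and without single libraries. For TE at 14 h 4 became 3 with the block and 1 to 3 without single libraries. A mean of at least 50 counts left no member to test there, as in total RNA at 14 h. The TE sign of Gbp3 at 2 h turned with library totals alone (-0.27) and ran from -0.50 to 0.38 without single libraries, below 0 when IFN-β replicate 5 (-0.03) or vehicle replicate 6 (-0.50) was left out. The causes were not tested. Summing members at least 90% identical could not be run, since Gbp6 and Gbp10, the 1 such pair, were not analysed. Few reads limit total RNA and TE, and shared sequence limits the chromosome 5 genes.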
